A study of Homo sapiens with 18 samples.

Results

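PC3 is a human cell line that was grown from a bone metastasis of a prostate carcinoma, and it serves as a model of metastatic castration-resistant disease. Canagliflozin (CANA) is an oral drug for type 2 diabetes that blocks SGLT2, the sodium-glucose transporter of the kidney tubule. The libraries described here are the 6 PC3 libraries of the 18 in the series, and they were taken by their labels: 3 from cells kept with 10 µM CANA and 3 from control cells given the solvent DMSO, each for 24 h and named replicates A, B and C. The other libraries come from 22RV1 cells and were not used. Both groups are 1 established cell line in medium with serum, neither was irradiated, and the labels do not say whether each library came from its own culture, so that p-values measure only the spread between these samples. The comparison asks which messenger RNAs differ after 24 h of CANA alone.

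Outside the kidney CANA is known to inhibit complex I of the respiratory chain, the enzyme that passes electrons from NADH into the chain. When that step slows, cells lean on glycolysis, and the energy sensor AMPK is switched on while the growth kinase complex mTORC1 is restrained. Separate stress programmes can answer the same insult, among them the integrated stress response led by ATF4, the sterol programme led by SREBP2 and inflammatory genes led by NF-kB. Gene lists for these programmes and for the growth, matrix and proliferation genes of a carcinoma cell were examined in turn.

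The values are reads on the exons of each gene, divided by a size factor of the library, and are called normalized reads. Values of a group are given for its replicates in the order A, B and C. Whole reads recovered from them summed to 22107439, 15807924 and 19251977 with CANA and to 18446537, 20061296 and 28327063 in control. CANA replicate B was the shallowest library and stood alone on the first principal component, which held 66.1% of the variance. Its difference from control followed transcript length. In genes with a canonical transcript under 1000 bases (n = 931) the median log2 difference from the control mean was 0.16, 0.85 and 0.18 with CANA. In genes of 4000 bases or more (n = 5111) it was -0.03, -0.34 and -0.03. CANA replicates A and C leaned the same way as replicate B, by far less. Results are therefore given for all 6 libraries and for the 5 libraries without CANA replicate B, and the part of RNA or library quality in these values was not tested.

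**Figure D1:**
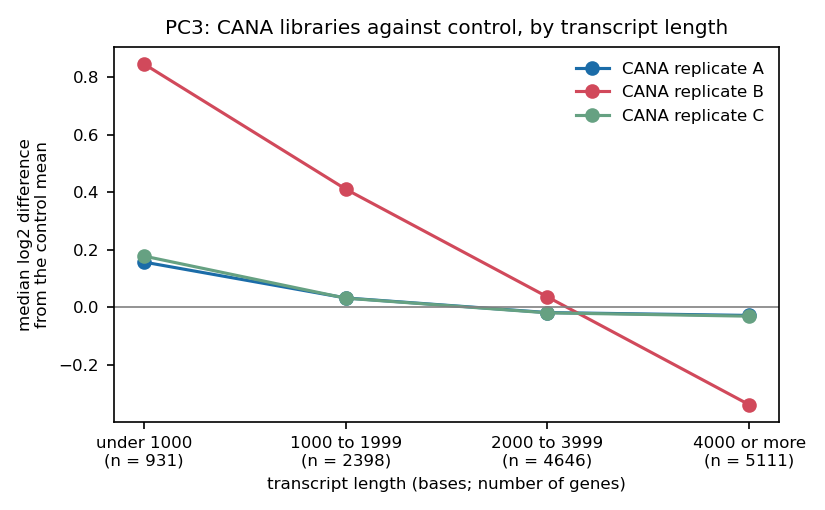
Median log2 difference of each CANA library from the mean of the 3 control libraries (vertical axis), for genes grouped by the length of their canonical transcript in bases (horizontal axis, with the number of genes). CANA replicate B runs from 0.85 in the shortest genes to -0.34 in the longest, while replicates A and C stay between -0.03 and 0.18.

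Markers fitted the label in most respects. The PC3 markers listed for the check (VIM, CD44, KRT8, KRT18, EGFR, CAV1, TMSB10 and ITGB4) were all among the genes tested. The luminal prostate kallikreins KLK2, KLK3 and KLK4 had no row in the table, which lists only genes with at least 1 read in each library. SLC5A2 and SLC5A1, which encode SGLT2 and its close relative SGLT1, had no row and were not analysed here. Of the markers of other cell types, 1 of 8 for leukocytes (CD68), 4 of 8 for fibroblasts and 2 of 5 for endothelium were tested.

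Many small differences separated CANA from control cells once CANA replicate B was set aside, and none passed the test with it. At an adjusted p under 0.05, the limma fit over the 5 libraries found 1403 genes that rose and 1280 that fell, which is 10.4% and 9.52% of the 13450 genes tested. Of these, 148 rose and 41 fell by at least 0.5 on the log2 scale, and the median difference was 0.28 among higher and -0.22 among lower genes. Over all 6 libraries limma called 0 genes (0.0%), with 1441 higher and 1045 lower at an unadjusted p under 0.05. On the recovered reads of the 6 libraries edgeR called 0 and DESeq2 called 263 higher and 84 lower. CANA replicate B lay on the same side of the control mean in 1264 of the 1403 higher genes and 1084 of the 1280 lower genes. That mean comes from the control libraries that also entered the calls, so part of this agreement was built in. The share among genes not called was not computed, and CANA replicates A and C shared the length lean of replicate B. All 3 CANA libraries lay above all 3 control libraries in 17.7% of the genes tested and below them in 17.7%. The counts moved with the libraries used. Without CANA replicate C as well, which leaves CANA replicate A alone against the 3 controls, limma called 516 higher and 258 lower. It called 775 and 448 without control replicate A, 948 and 625 without control replicate B, 1130 and 970 without CANA replicate A, and 1930 and 1960 without control replicate C. With 1 CANA library left, the spread comes from the 3 control libraries alone and the lone CANA library is assumed to vary as they do, so that a call lost or kept there rests on that assumption. Where a gene list loses many calls, the fewest are given with the library left out, and the counts without any other library lay at or above them.

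The share of genes called was higher where more reads were counted. Among genes with a mean of 10 to 100 normalized reads (n = 2730) 1.65% were called higher and 1.32% lower. Among those with 1000 to 10000 (n = 4727) 15.9% were higher and 17.1% lower. Of the genes over 10000 (n = 292) 34.2% were higher and 14.7% lower. Counts of gene lists below can be read against these shares and against 10.4% higher and 9.52% lower over all genes. No list was tested against them. Higher genes with CANA replicate B on the same side had a median canonical transcript of 2087 bases, and the 139 higher genes with replicate B on the other side 5832 bases. For lower genes the order turned round, with 4191 bases on the same side and 1959 bases for the 196 genes on the other side.

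**Figure D2:**
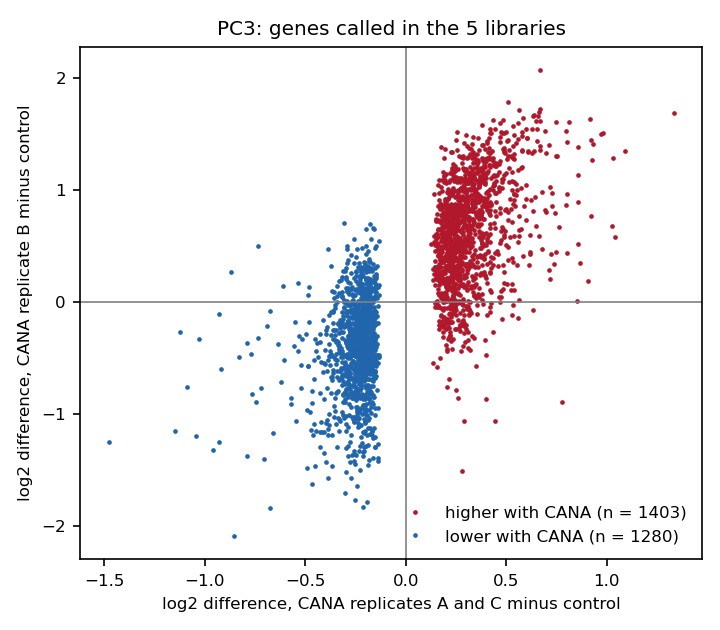
Log2 difference from control in CANA replicate B (vertical axis) against that of CANA replicates A and C in the 5-library fit (horizontal axis), 1 point for each gene called. Replicate B was on the same side as A and C for 1264 of 1403 higher genes (red) and 1084 of 1280 lower genes (blue), and its differences spread more widely. Both axes use the same control libraries, so the differences on them are not independent.

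Over the 5 libraries 6 called genes fell by at least 1 on the log2 scale, and they are not described here. Only 5 genes rose by as much, and they were picked out after their values were seen. MACC1, a transcription regulator of MET and of carcinoma spread (chromosome 7, 20134655 to 20217404), measured 195, 161 and 218 with CANA, against 108, 99.5 and 94.2 in control. Its log2 difference was 1.03 (SE 0.12, adjusted p = 1.2e-05), and it was 0.91 over all 6 libraries. All 3 CANA libraries lay well above the controls, with replicate B the lowest of them. CASP1, the protease that matures interleukin 1 beta, measured 73.6, 85.5 and 70.1 with CANA and 31.9, 36.7 and 35.3 in control, a log2 difference of 1.03. The remaining genes DLL4, TSACC and BMP3 had at most 50.1 normalized reads in any library. Among genes with a mean of at least 100 the next in size included cytokine and trefoil genes described below, RGS4, a brake on G protein signalling, at 0.87, and DENND3, an exchange factor for the GTPase RAB12, at 0.80. RGS4 measured 129.7, 97.1 and 150.2 with CANA and 71.8, 84.9 and 72.1 in control, so that CANA replicate B lay nearest to control. DENND3 measured 1365, 1027 and 1284 with CANA and 766, 798 and 716 in control.

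The smallest p over all 6 libraries, among genes whose groups did not overlap, named 10 genes in each direction. Those that were higher included TFPI, DUSP5, RNR2, ND2, LINC-PINT, IL6, CXCL8 and SOD2, with log2 differences of 0.50 to 1.15 over 6 libraries and adjusted p of 0.118 to 0.202 by limma. LINC-PINT, a long noncoding RNA of growth control (chromosome 7, 130791264 to 131110176), measured 445, 493 and 472 with CANA, against 266, 276 and 306 in control. The 3 CANA libraries lay close to each other and far above control. Its log2 difference over the 5 libraries was 0.70 (SE 0.087, adjusted p = 2.5e-05).

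Lower by the same rule were PMEPA1, TXNIP, SHISA2, FAM222A, E2F2, EPHB3, SRRT, NCOA5, GTSE1 and CCNF, with log2 differences of -0.65 to -0.41 over 6 libraries. PMEPA1, a target and feedback inhibitor of TGF-beta signalling (chromosome 20, 57648392 to 57711536), measured 1119, 1219.9 and 1162 with CANA, against 1686, 1626 and 1648 in control. SHISA2, which holds back FGF and Wnt receptors in the endoplasmic reticulum, measured 454, 387 and 467 with CANA, against 661, 664 and 658 in control. SRRT, which links the cap-binding complex to RNA processing, measured 2688, 2373 and 2430.5 with CANA, against 3550.3, 3503 and 3245 in control. In each of these genes the highest CANA library was below the lowest control library. Over the 5 libraries the log2 differences were -0.54 (SE 0.055, adjusted p = 2.5e-06), -0.52 (SE 0.068, adjusted p = 4.0e-05) and -0.42 (SE 0.056, adjusted p = 4.9e-05) in the same order. FAM222A (-0.49) and NCOA5, a coregulator of nuclear receptors (-0.41), also fell. The largest falls over the 5 libraries in genes with a mean of at least 100 were LYPD1, a GPI-anchored protein that binds nicotinic receptors, at -0.79, SFMBT2, a polycomb-group protein, at -0.66, and EPHB3. LYPD1 measured 225, 316 and 246 with CANA and 419.6, 394 and 409 in control, and there replicate B came nearest to control. MOB3B fell by 0.57 and the homeobox gene DLX2 by 0.61, but MOB3B lost its call without CANA replicate C as well (adjusted p = 0.0954) and DLX2 without CANA replicate A (adjusted p = 0.0883). HOXA11-AS, an antisense RNA of the HOXA cluster, measured 163, 189.8 and 166 with CANA and 251, 270.3 and 184 in control. Its groups overlapped through CANA replicate B, and the fall of 0.50 lost its call without CANA replicate C (adjusted p = 0.062), control replicate A (0.067) or control replicate B (0.069). LOC100129503 fell by 0.57 and lost its call without CANA replicate C (adjusted p = 0.14). HAS3, an enzyme that makes hyaluronan, measured 6422, 4628 and 6435 with CANA and 9438, 8819.5 and 8841 in control and fell by 0.49. In ARMC5 the groups overlapped, since CANA replicate B lay above every control library (108, 171 and 100.1 with CANA and 163, 141 and 152 in control), and its 5-library call was lost without CANA replicate C (adjusted p = 0.064).

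**Figure D3:**
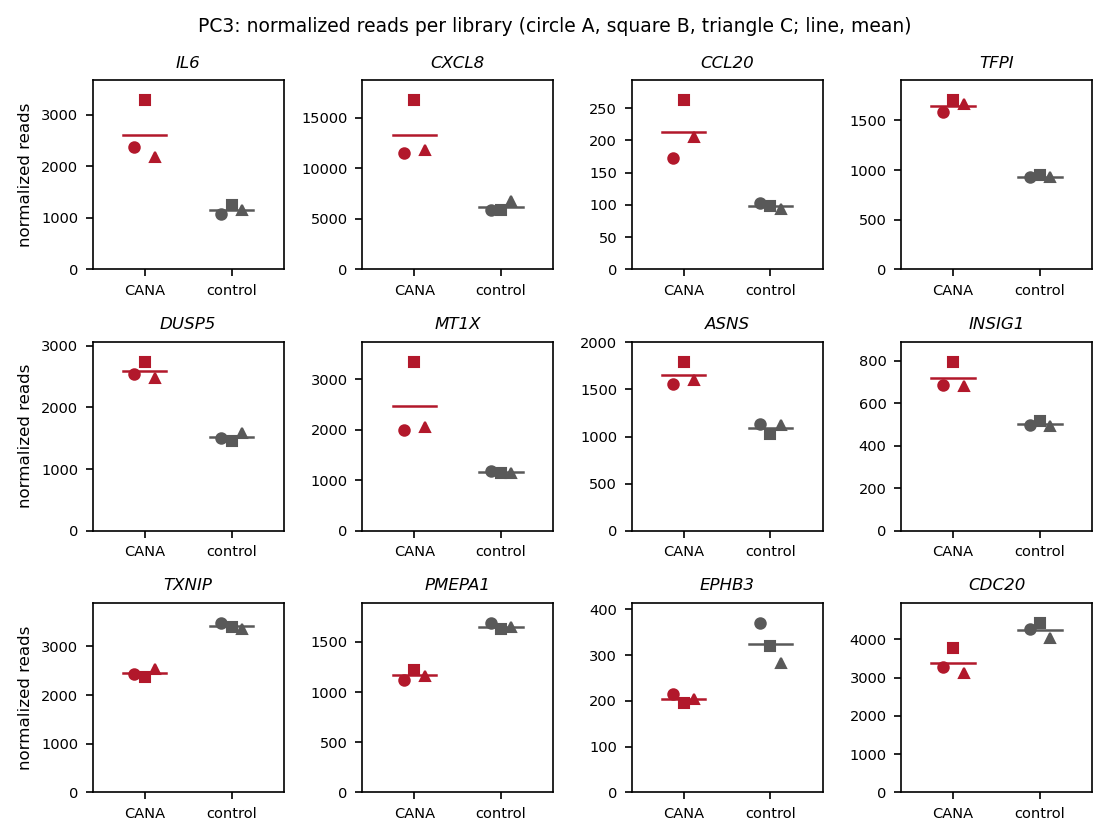
Normalized reads of 12 genes in each library (vertical axis, from 0), with the CANA libraries left of the control libraries, circles for replicate A, squares for B, triangles for C and a line at the mean of 3. The CANA and control libraries overlap in none of the 12 panels. Replicate B is the highest CANA library in IL6, CXCL8, CCL20, TFPI, DUSP5, MT1X, ASNS and INSIG1. It is also the highest in PMEPA1 and CDC20, which fell, so that it lies nearest to control there.

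Inflammatory cytokine genes rose in part. Of 25 genes tested in the list of cytokines and chemokines, 9 rose and 1 fell over the 5 libraries (6 rose without CANA replicate C as well), and the median was 0.14 against -0.01 over all genes tested. IL6, a cytokine that signals through gp130 and STAT3 (ENSG00000136244, chromosome 7, 22725884 to 22732002), measured 2381, 3285 and 2184 with CANA, against 1084, 1244 and 1159.9 in control. CXCL8, the neutrophil attractant interleukin 8 (ENSG00000169429, chromosome 4, 73740519 to 73743716), measured 11491, 16753 and 11782 with CANA, against 5846, 5863 and 6781 in control. CCL20, which attracts cells with the receptor CCR6, measured 173, 262 and 205 with CANA, against 103, 98.5 and 94.2 in control. In all of these CANA replicate B was the highest library and the lowest CANA library was well above the highest control. The log2 differences over the 5 libraries were 0.97 (SE 0.063, adjusted p = 3.1e-08) for IL6, 0.92 (SE 0.057, adjusted p = 2.4e-08) for CXCL8 and 0.93 (SE 0.12, adjusted p = 4.9e-05) for CCL20. IL1B, an alarm cytokine made as an inactive precursor, measured 30849, 35121 and 31332 with CANA and 23319, 23525 and 23458 in control and rose by 0.41. The myeloid growth factor gene CSF2 measured 422, 588 and 439 with CANA and 282, 312 and 288 in control, a log2 difference of 0.55. IL11, a relative of IL6 that acts through the same gp130, was the member that fell, at -0.31, with 279.8, 352 and 356 with CANA and 407, 398 and 373 in control. Each CANA library of IL11 was below each control library, and the call was lost without CANA replicate A, control replicate A or control replicate B.

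The promoters of the 2 leading cytokine genes are shown because the textbook NF-kB site of each lies in them. RefSeq promoters (build GRCh38.p14, from 250 bases before to 50 bases after the annotated start) were searched on both strands for GGANNTTCC, which 4.59% of 27305 promoters hold. Of 19 tested members of the list with a promoter sequence 9 held it, and of the 9 called members with a sequence 4 did. Capitals mark the match, which starts 72 bases before the annotated start in IL6 (chr7:22726950-22727249, plus strand) and 91 bases before it in CXCL8 (chr4:73740319-73740618, plus strand). A match describes the letters only.
IL6: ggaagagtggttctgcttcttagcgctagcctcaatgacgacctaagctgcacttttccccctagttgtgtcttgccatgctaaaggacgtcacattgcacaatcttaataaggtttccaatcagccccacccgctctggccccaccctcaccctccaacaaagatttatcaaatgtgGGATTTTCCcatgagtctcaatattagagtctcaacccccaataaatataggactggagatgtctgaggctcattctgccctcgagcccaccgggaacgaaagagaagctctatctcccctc
CXCL8: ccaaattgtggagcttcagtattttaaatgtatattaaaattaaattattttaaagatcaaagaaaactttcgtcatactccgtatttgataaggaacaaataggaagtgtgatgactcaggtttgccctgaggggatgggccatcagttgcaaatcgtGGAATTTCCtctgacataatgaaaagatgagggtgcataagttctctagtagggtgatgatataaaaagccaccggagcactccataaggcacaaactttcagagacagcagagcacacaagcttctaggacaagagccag

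The subunits and feedback genes of NF-kB did not share that direction. Their calls can be read against 10.4% higher and 9.52% lower over all genes. Of 20 tested, 3 rose and 4 fell (2 and 0 without CANA replicate C as well, 3 and 7 without control replicate C), with a median of -0.02. SOD2, the mitochondrial superoxide dismutase, measured 3749.5, 3854 and 3902 with CANA, against 2726, 2661 and 2736 in control, and the 3 CANA libraries lay close together above control. Its log2 difference was 0.50 (SE 0.048, adjusted p = 1.6e-06). TNFAIP3, the feedback inhibitor A20, measured 1218, 842 and 1187 with CANA and 905, 968 and 825 in control, so that CANA replicates A and C were high and replicate B lay inside the control range (5-library log2 difference 0.42). BCL3, a nuclear partner of p50 and p52, measured 441, 375 and 450.5 with CANA and 547, 521 and 587 in control and fell by 0.30, a call lost without CANA replicate C (adjusted p = 0.0571).

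Class I antigen presentation had few readable members. HLA-B, a heavy chain of class I molecules, measured 129.7, 117 and 135 with CANA and 128, 119 and 116 in control, and the groups overlapped. B2M, the light chain that all class I molecules share, measured 1886, 2848 and 2068 with CANA, against 1452, 1373 and 1535 in control. The log2 differences over the 5 libraries were 0.13 for HLA-B and 0.44 (SE 0.061, adjusted p = 7.1e-05) for B2M. Of 11 genes tested 3 rose and 0 fell, with a median of 0.15. HLA genes are highly variable between people and alike among themselves, so that 50-base reads may be shared or lost between them, and HLA-B values are uncertain for that reason. Of 31 interferon-stimulated genes 5 rose (2 without CANA replicate C as well) and 0 fell, with a median of 0.15. IFIT2, which binds foreign RNA, measured 798, 758 and 743 with CANA and 545, 586 and 591 in control, a difference of 0.42 in which replicate B lay with A and C. IFITM1, a membrane protein that hinders virus entry and has near-identical neighbours, measured 212, 398 and 250.3 with CANA and 140.2, 124 and 129 in control (0.81), with replicate B far above the other CANA libraries.

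Small secreted and epithelial defence proteins rose together. Of 23 S100, trefoil, mucin and antiprotease genes tested, 16 rose (11 without CANA replicate C as well) and 0 fell, with a median of 0.39. TFF2, a trefoil peptide that protects mucosa (chromosome 21, 42346357 to 42350997), measured 534, 874 and 529 with CANA, against 295, 285 and 264 in control. TFF1, its relative in stomach and breast, measured 1161, 1799.5 and 1174 with CANA, against 724, 709 and 583 in control. CSTB, an inhibitor of cathepsins, measured 10503, 14780 and 11279 with CANA, against 7375, 7239.8 and 7302 in control. Every CANA library was above every control library in these genes, and replicate B was the highest. The log2 differences were 0.92 (SE 0.082, adjusted p = 6.2e-07) for TFF2, 0.80 (SE 0.08, adjusted p = 1.9e-06) for TFF1 and 0.58 (SE 0.046, adjusted p = 2.2e-07) for CSTB. SLPI, an inhibitor of neutrophil elastase, measured 1908, 3859.8 and 1898 with CANA and 1261, 1255 and 1162 in control, with replicate B far above the other CANA libraries, and rose by 0.63. The transcripts of this list are short, with a median of 603 bases, and with a curve on transcript length taken away from each library 12 members rose and 1 fell.

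Metallothionein genes rose as well. These small proteins bind zinc and copper and are switched on by the zinc sensor MTF1. MT1X (ENSG00000187193, chromosome 16, 56682470 to 56684196) measured 1994, 3345 and 2051 with CANA, against 1193, 1151 and 1147 in control. MT2A measured 29638, 50005 and 28707 with CANA, against 20576, 21383 and 18951 in control. CANA replicates A and C were close to each other, replicate B was higher still and control was lowest. The log2 differences were 0.80 (SE 0.054, adjusted p = 4.0e-08) for MT1X and 0.52 (SE 0.051, adjusted p = 1.7e-06) for MT2A, with 0.75 for MT1G and 0.65 for MT1F. These genes are near-identical copies in 1 cluster, so that the share of each is uncertain. SLC30A1, the zinc exporter that MTF1 also controls, went the other way, with 268, 209 and 257 with CANA and 351, 309 and 341 in control, a log2 difference of -0.34 (adjusted p = 0.011 by limma), a call lost without CANA replicate C. In the whole list of 13 metallothionein and zinc genes 6 rose and 3 fell (4 and 0 without CANA replicate C as well).

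The promoters of these 2 genes carry several copies of the core letters of the metal response element, TGCACNC or TGCGCNC, on either strand. That short core is common and stands in 29.3% of the 27305 promoters, and in 5 of 8 tested members of the list with a sequence. All tested genes with a sequence held it more often than the 27305 promoters. It stood in 38.0% of those called higher, 43.5% of those called lower and 38.6% of those not called. Capitals mark 4 matches in MT1X (chr16:56682220-56682519, plus strand) and 8 in MT2A (chr16:56608334-56608633, plus strand).
MT1X: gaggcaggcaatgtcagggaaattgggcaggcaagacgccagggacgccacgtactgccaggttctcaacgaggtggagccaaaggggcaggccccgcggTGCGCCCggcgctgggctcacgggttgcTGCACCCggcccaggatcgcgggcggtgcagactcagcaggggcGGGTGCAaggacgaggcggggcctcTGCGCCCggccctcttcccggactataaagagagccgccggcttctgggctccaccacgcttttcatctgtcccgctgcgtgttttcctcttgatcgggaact
MT2A: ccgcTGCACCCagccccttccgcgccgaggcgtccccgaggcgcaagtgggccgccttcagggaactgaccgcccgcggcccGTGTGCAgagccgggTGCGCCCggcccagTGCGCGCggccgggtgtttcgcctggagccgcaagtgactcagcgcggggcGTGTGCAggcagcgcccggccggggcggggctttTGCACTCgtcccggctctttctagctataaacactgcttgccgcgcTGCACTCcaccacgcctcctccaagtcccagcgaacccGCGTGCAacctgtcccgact

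Genes encoded in mitochondrial DNA rose with 1 exception. Of 15 tested 14 rose (13 without CANA replicate C as well) and 0 fell, with a median of 0.46, and the medians by CANA replicate were 0.40, 0.65 and 0.57. ND2, a subunit of complex I, measured 39139, 42232 and 41011 with CANA, against 27432, 26732 and 26562 in control. COX2, a subunit of cytochrome c oxidase, measured 60627, 78037 and 65886 with CANA, against 44552, 42161 and 45228 in control. RNR2, the large ribosomal RNA of the organelle, measured 138340, 151350 and 154430 with CANA, against 86259, 83378 and 92604 in control. The controls lay close together and no CANA library came near them. The log2 differences were 0.57 (SE 0.045, adjusted p = 1.9e-07) for ND2, 0.52 (SE 0.05, adjusted p = 1.5e-06) for COX2, 0.74 (SE 0.057, adjusted p = 1.3e-07) for RNR2 and 0.51 (SE 0.047, adjusted p = 8.9e-07) for ATP6, a subunit of ATP synthase. ND6, the only protein gene of the light strand, was the exception, with 1827, 2029.9 and 2030 with CANA and 2009, 1929.6 and 2089 in control (log2 difference -0.06, adjusted p = 0.50 by limma). MTRNR2L8 (0.86) and MTRNR2L2 (0.86), nuclear near-copies of RNR2, also rose, and reads of RNR2 and its copies cannot be told apart with certainty. With a curve on transcript length taken away, 11 members of the mitochondrial DNA list rose and 1 fell.

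Nuclear genes of the respiratory chain rose by less in CANA replicates A and C. Of 35 complex I genes 20 rose (12 without CANA replicate C as well) and 0 fell, and of 38 genes of complexes II to V 27 rose (20) and 0 fell. The list medians were 0.17, 1.06 and 0.21 for complex I and 0.25, 1.00 and 0.27 for complexes II to V, by CANA replicate. NDUFS4, a complex I subunit whose loss causes Leigh syndrome, measured 903, 1481 and 927 with CANA, against 578, 589 and 606 in control. COX6C, a subunit of cytochrome c oxidase, measured 5360.4, 11153 and 5496 with CANA, against 3734, 3992 and 3991 in control. Replicates A and C were alike and above control, and replicate B was far higher for COX6C. The log2 differences over the 5 libraries were 0.63 (SE 0.065, adjusted p = 2.5e-06) for NDUFS4 and 0.48 (SE 0.049, adjusted p = 2.5e-06) for COX6C, with 0.43 for the complex III gene UQCRH, 0.40 for NDUFA1 and 0.33 for NDUFS5. These messages are short, with median canonical transcripts of 678 and 1058 bases. With a curve on transcript length taken away, complex I had 6 higher and 4 lower members, and complexes II to V had 18 higher and 2 lower, so that the complex I count did not hold under that setting.

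Cytosolic ribosomal protein genes rose almost as a whole. Of 76 tested 71 rose (67 without CANA replicate C as well, and 64 with the length curve taken away) and 0 fell, with medians of 0.41, 1.24 and 0.46 by CANA replicate. RPL37, a protein of the large subunit, measured 9338, 16994 and 9779.7 with CANA, against 6099.6, 5901 and 5736 in control. RPL26 of the large subunit measured 6191, 12273 and 6408 with CANA and 3888, 4058 and 4103 in control, and RPS27 of the small subunit 6033, 9622 and 5904 with CANA and 3559, 3756 and 3951 in control. Replicates A and C agreed closely, above control, with replicate B far higher. By log2 these differed by 0.69 (SE 0.047, adjusted p = 4.0e-08), 0.65 (SE 0.047, adjusted p = 8.9e-08) and 0.67 (SE 0.051, adjusted p = 1.3e-07) in that order. Of 26 translation factors 14 rose (9 without control replicate A) and 3 fell (1 without CANA replicate C as well). EIF3E, a subunit of initiation factor 3, measured 10379, 14261 and 11694 with CANA and 7386, 7268 and 8142 in control (0.54). TPT1 (0.47) and the elongation factor EEF1A1 (0.40) rose with it, and like ribosomal protein genes they carry the 5′ oligopyrimidine start that mTORC1 acts on in translation.

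Nuclear long noncoding RNAs and the hosts of small nucleolar RNAs rose in 10 of 17 tested genes (7 without CANA replicate C as well) and fell in 0, with a median of 0.27. MALAT1, a long RNA of nuclear speckles, measured 5028, 12589 and 4548 with CANA, against 2875, 3055 and 3093 in control. Replicate B was far above the other CANA libraries although its canonical transcript is 10434 bases long. NEAT1, the scaffold of paraspeckles, measured 1602, 1307 and 1774 with CANA, against 1116, 1229 and 1157 in control, and there replicate B was the lowest CANA library and still above control. GAS5 and ZFAS1, hosts of small nucleolar RNAs with 5′ oligopyrimidine starts, rose by 0.58 and 0.53. On the log2 scale the differences were 0.67 (SE 0.054, adjusted p = 2.2e-07) for MALAT1 and 0.53 (SE 0.062, adjusted p = 1.2e-05) for NEAT1.

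**Figure D4:**
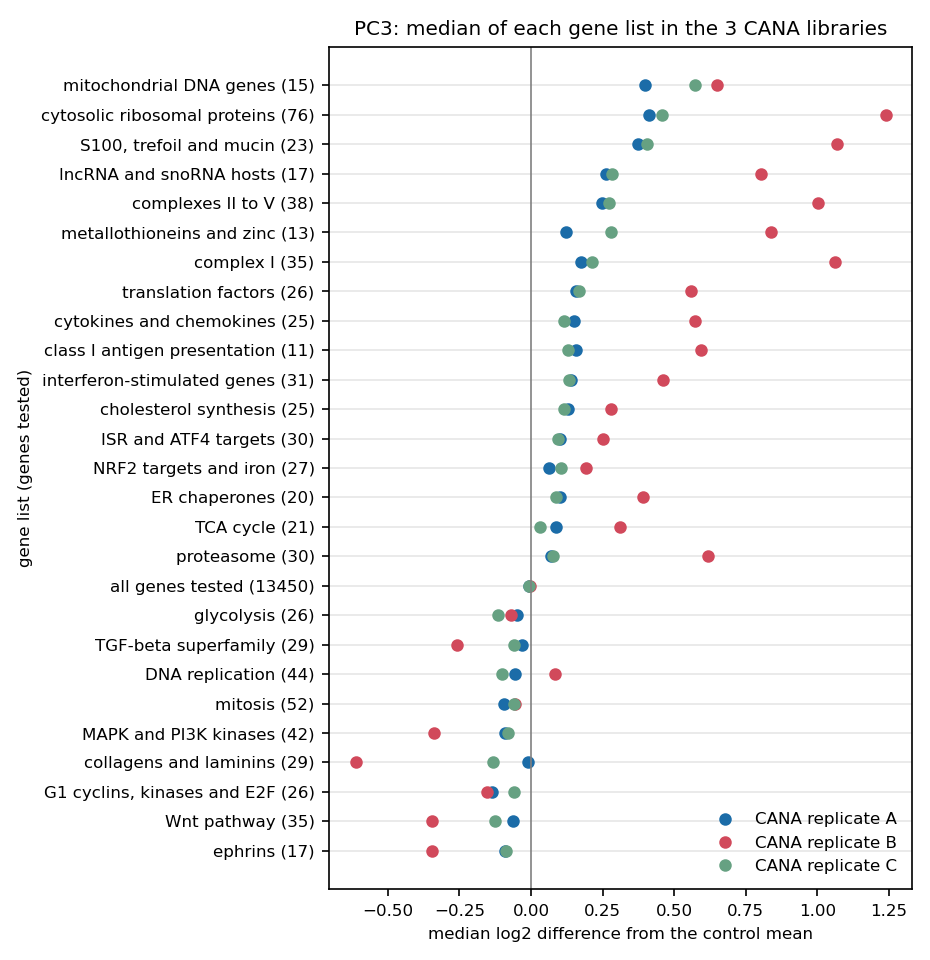
Median log2 difference from the control mean over the tested genes of each list (horizontal axis; list names with the number of genes on the vertical axis), 1 point for each CANA library. Ribosomal, mitochondrial DNA, S100 and respiratory chain genes stand to the right of all genes in each replicate, Wnt and ephrin genes to the left, and replicate B reaches 1.24 for ribosomal proteins and -0.61 for collagens and laminins.

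Sugar handling changed in single genes. TXNIP, an arrestin that limits glucose uptake and is switched on by the glucose sensor MondoA (ENSG00000265972), measured 2442, 2378 and 2529.5 with CANA, against 3474, 3400.4 and 3355 in control. All CANA libraries were below all controls, with a log2 difference of -0.46 (SE 0.049, adjusted p = 3.7e-06). Its relative ARRDC3 went up, at 1465, 1372 and 1508 with CANA and 1177, 1266 and 1261 in control (0.27, a call lost without CANA replicate C, adjusted p = 0.0632), while ARRDC4, the other MondoA target of the family, measured 136, 110.1 and 160.2 with CANA and 190.4, 179 and 165 in control and did not pass (log2 difference -0.27, adjusted p = 0.11 by limma). The carbohydrate response type of motif, a spaced pair of E-boxes searched on both strands, stands in 0.0732% of the 27305 promoters, and it was found in TXNIP 88 bases before its annotated start (chr1:145996530-145996829, minus strand), shown with the match in capitals.
TXNIP: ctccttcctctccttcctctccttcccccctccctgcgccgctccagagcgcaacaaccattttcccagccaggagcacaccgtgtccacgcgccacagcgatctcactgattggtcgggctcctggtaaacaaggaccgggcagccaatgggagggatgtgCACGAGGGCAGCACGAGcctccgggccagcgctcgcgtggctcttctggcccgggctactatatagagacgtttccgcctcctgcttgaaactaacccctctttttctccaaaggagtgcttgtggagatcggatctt

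Of 9 transporters of the SLC2A and SLC5A families that were tested, 0 rose and 1 fell (0 without CANA replicate C as well, 2 without control replicate C). SLC2A1, the main glucose carrier GLUT1 of carcinoma cells, measured 3174, 2680.4 and 3180.2 with CANA, against 3467, 3545 and 3187 in control, and the difference of -0.10 over the 5 libraries did not pass (adjusted p = 0.21 by limma). The member that fell was SLC5A6, a carrier of biotin and pantothenate, at -0.33, a call lost without CANA replicate C (adjusted p = 0.218). Of 26 glycolysis genes 1 rose and 4 fell over the 5 libraries. The number that fell was 0 without CANA replicate C, control replicate A or control replicate B, and 14 without control replicate C (with 2 higher), and library weights gave 8. The member that rose was LDHB, the lactate dehydrogenase subunit of oxidative tissue, with 12066, 18483 and 12180 with CANA and 9599.7, 10459 and 10512 in control (0.25). Of 21 targets of the hypoxia factor HIF 4 rose and 2 fell (2 and 1 without CANA replicate C as well, 8 and 4 without control replicate C). NDRG1, a stress-induced metastasis suppressor, measured 10775, 10232 and 11503 with CANA and 9424, 8193 and 7968 in control (0.39), and BNIP3L, a receptor for mitophagy, 4051, 4138 and 4272 with CANA and 3453, 3442 and 3533 in control (0.26). VEGFA, the vascular growth factor, fell by 0.21 with 5358, 4678 and 5268 with CANA and 6058, 6260.3 and 6091 in control, a call lost without CANA replicate C (adjusted p = 0.0658).

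Sterol genes rose in part. Counts of the sterol and fatty acid lists can be read against 10.4% higher and 9.52% lower over all genes. Of 25 genes of cholesterol synthesis and its control 8 rose (5 without CANA replicate C as well, 10 with the length curve taken away) and 0 fell, with a median of 0.14. MSMO1, a sterol demethylase (chromosome 4, 165327667 to 165343164), measured 1003, 1191 and 1087 with CANA, against 715, 717 and 815 in control. INSIG1, the sterol-sensitive anchor of SREBP that is itself an SREBP target, measured 684, 795 and 682 with CANA, against 499, 518 and 492 in control. STARD4, a cholesterol carrier, measured 258, 233 and 261 with CANA and 171, 194 and 192 in control. No CANA library reached down to control in any of them. The log2 differences were 0.48 (SE 0.071, adjusted p = 1.5e-04) for MSMO1, 0.44 (SE 0.069, adjusted p = 2.5e-04) for INSIG1, 0.49 (SE 0.1, adjusted p = 0.0026) for STARD4 and 0.37 (SE 0.067, adjusted p = 8.9e-04) for IDI1, an isomerase of the pathway. Fatty acid synthesis did not share the direction, with 1 of 15 higher and 4 lower (0 and 0 without CANA replicate C as well). There ACSL4, which activates arachidonic acid, rose by 0.26 and ACSL1 fell by 0.26, and both calls were lost without CANA replicate C (adjusted p = 0.0727 and 0.106).

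In the matrix of the mitochondrion, 8 of 21 TCA cycle genes rose and 1 fell (2 and 0 without CANA replicate C as well, 9 and 5 without control replicate C), and 4 of 19 fatty acid oxidation genes rose (2) and 0 fell. SUCLG2, a subunit of succinyl-CoA ligase, measured 1532, 1743 and 1695 with CANA and 1178, 1232 and 1300.4 in control (0.38). ECI2 (0.29) and DECR1 (0.29), which handle unsaturated fatty acids, also rose. With a curve on transcript length taken away, 5 TCA cycle genes rose and 1 fell. SDHD, the membrane anchor of complex II, rose by 0.35 and lost its call without CANA replicate C (adjusted p = 0.0756).

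The integrated stress response was partly higher. Of 30 genes led by ATF4 9 rose (5 without CANA replicate C as well) and 1 fell, with a median of 0.11. ASNS, asparagine synthetase (ENSG00000070669, chromosome 7, 97851677 to 97872542), measured 1554, 1794 and 1599.5 with CANA, against 1129, 1032 and 1121 in control. SLC38A2, a carrier for neutral amino acids, measured 23928, 22098 and 25253 with CANA, against 18050, 17703 and 19350 in control. CHAC1, which breaks down glutathione, measured 282, 291 and 294 with CANA and 188, 184 and 210.5 in control, a log2 difference of 0.57. In all of these the CANA libraries lay together above control. The log2 differences of ASNS and SLC38A2 were 0.53 (SE 0.059, adjusted p = 7.3e-06) and 0.42 (SE 0.049, adjusted p = 1.1e-05). NUPR1, a stress-induced chromatin protein, rose by 0.48, and DDIT3, the factor CHOP, by 0.36. ATF5, a factor of the mitochondrial stress response, was the member that fell, with 2150.2, 2233 and 2037 with CANA, against 2687, 2794 and 2500.0 in control (-0.34). Serine synthesis genes PHGDH (0.06) and PSAT1 (0.13) did not pass. With a curve on transcript length taken away, 6 members of the list rose and 1 fell.

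The amino acid response letters TGATGNAAN stand in 3.67% of the 27305 promoters and in 6 of 24 tested members of the list with a sequence. Among tested genes with a sequence the share was 2.61% of those called higher, 0.57% of those called lower and 1.69% of those not called. In ASNS the match, in capitals, starts 68 bases before the annotated start (chr7:97872359-97872658, minus strand).
ASNS: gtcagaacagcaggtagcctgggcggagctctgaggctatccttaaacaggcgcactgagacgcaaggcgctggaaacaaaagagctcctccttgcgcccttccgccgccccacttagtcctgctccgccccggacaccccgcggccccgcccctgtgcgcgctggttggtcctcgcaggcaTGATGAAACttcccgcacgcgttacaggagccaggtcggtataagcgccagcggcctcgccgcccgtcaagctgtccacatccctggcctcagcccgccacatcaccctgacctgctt

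Neighbouring stress programmes also held calls. Of 19 cytosolic tRNA synthetases 9 rose (2 without CANA replicate C as well), by at most 0.22, and 1 fell (0, and 3 without control replicate C), with EPRS1 at 0.21 and TARS1 at 0.20, the call of TARS1 being lost without CANA replicate C (adjusted p = 0.115). Of 20 chaperones and factors of the endoplasmic reticulum 6 rose (2 without CANA replicate C as well) and 0 fell. MANF, a secreted stress factor, measured 4043, 6430.1 and 4353 with CANA and 3436, 3412 and 3384 in control (0.30), and the chaperone HSP90B1 31975, 38344 and 31672 with CANA and 26962, 27105 and 26807 in control (0.24). Of 27 NRF2 and iron genes 7 rose and 4 fell (5 and 0 without CANA replicate C as well). Thioredoxin TXN (0.41), ferritin light chain FTL (0.29), the ketosteroid reductase AKR1C3 (0.43) and peroxiredoxin PRDX1 (0.24) were among those that rose, and in each CANA replicate B was far the highest library. AKR1C3 measured 635, 1087 and 723 with CANA and 505, 504 and 504 in control. Of 30 proteasome genes 11 rose and 3 fell (4 and 1 without CANA replicate C as well), with PSMA6 of the core at 0.30 and PSMD2 of the lid and base at -0.25. Of 31 lysosome and V-ATPase genes 7 rose (5) and 1 fell (0, and 3 without control replicate C). NPC2, which hands cholesterol out of the lysosome, measured 1731, 2464 and 1749.7 with CANA and 1163, 1156 and 1249 in control (0.55), and the proton pump subunits ATP6V1D (0.37) and ATP6V1G1 (0.35) rose as well. With a curve on transcript length taken away, the proteasome list had 8 higher and 6 lower members, so that its count did not hold under that setting.

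Feedback genes of the growth factor pathway split. DUSP5, a nuclear phosphatase of ERK, measured 2542, 2739.8 and 2474 with CANA, against 1499, 1460.3 and 1591 in control. ERRFI1, a feedback inhibitor of EGFR, measured 12553, 11669 and 13116 with CANA, against 9243, 8762 and 8722 in control. Both rose, with log2 differences of 0.73 (SE 0.055, adjusted p = 1.3e-07) and 0.53 (SE 0.047, adjusted p = 6.0e-07), and replicate B lay with A and C. SPRY4, a feedback inhibitor of receptor kinases, measured 1208, 852 and 1311 with CANA and 1482, 1525 and 1467 in control and fell by 0.24, a call lost without CANA replicate A (adjusted p = 0.092). Of the 18 ERK feedback genes 2 rose and 5 fell (1 fell without CANA replicate C as well). The factor EGR2, an early target of ERK, measured 53.2, 44.9 and 41.2 with CANA and 98, 65 and 81 in control (-0.76, a call lost without CANA replicate C, adjusted p = 0.124, or without control replicate A). EGFR itself measured 4185, 1391 and 4202 with CANA, against 4674, 4517 and 4239.8 in control. CANA replicate B held about 1 read for every 3 in the other CANA libraries on this transcript of 9905 bases, and over the 5 libraries the difference of -0.09 did not pass (adjusted p = 0.20 by limma). AREG, an EGFR ligand with a transcript of 1234 bases, measured 585, 1084 and 616 with CANA and 726, 663 and 661 in control, with replicate B above every control and A and C below every control.

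Kinases of the MAPK and PI3K cascades were lower more often than higher, with 2 of 42 higher and 13 lower (1 and 2 without CANA replicate C as well, 6 and 16 without control replicate C) and a median of -0.08. PIK3R3, a regulatory subunit of PI3K, measured 816, 665 and 856 with CANA, against 1081, 1108 and 1049.5 in control. IRS1, the adaptor below the insulin and IGF1 receptors, measured 2704, 1529 and 2646 with CANA, against 3279, 3193 and 3130.0 in control. The CANA libraries lay below control in both, replicate B the lowest, and the log2 differences were -0.37 (SE 0.06, adjusted p = 4.1e-04) and -0.26 (SE 0.049, adjusted p = 0.0013). PIK3C3, the lipid kinase of autophagy, rose by 0.31. The study, which writes PI3KC3, lists it among the genes that CANA lowered, so the direction here is the opposite. Of 23 genes of AMPK and the brakes of mTORC1 1 rose and 4 fell (1 and 0 without CANA replicate C as well). That list also holds parts of the mTOR complexes themselves, MTOR, RPTOR, RICTOR and MLST8, which are not brakes. The riser was RICTOR, the mTORC2 scaffold, with 1576, 888 and 1687 with CANA and 1256, 1124 and 1335 in control (0.40). There CANA replicates A and C were above and replicate B below every control. MTOR (fell by 0.22) and RPTOR, the mTORC1 scaffold (fell by 0.25), lost their calls without CANA replicate C (adjusted p = 0.131 and 0.0909).

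Other signalling genes that the study names for PC3 differed by small amounts. The kinase genes MAP3K11 (-0.20), MAPK14 (-0.15), MAPKAPK3 (-0.24), AKT1 (-0.20) and RPS6KA1 (-0.18), the PI3K subunit PIK3R1 (-0.30), the adaptors SHC3 (-0.30) and GRB2 (-0.18) and the GTPase RAC2 (-0.18) were lower over the 5 libraries. So were the factors ELK1 (-0.16), E2F3 (-0.19) and E2F4 (-0.20) and the kinase CDK2 (-0.18). In each of these genes every CANA library was below every control library, yet each lost its call without at least 1 further library. SHC3 lost it whichever further library was left out. MAPK14, PIK3R1, ELK1, E2F3, E2F4 and CDK2 kept it only without control replicate C. RPS6KA1 and RAC2 kept it only without CANA replicate A or control replicate C. AKT2 measured 2039.8, 1711 and 1865 with CANA and 2196, 2183 and 2137 in control and did not pass (-0.15, adjusted p = 0.0501 by limma), nor did the repressor REST (-0.16, adjusted p = 0.0586 by limma). PRKCA, a protein kinase C, fell by 0.27 and lost the call without CANA replicate C (adjusted p = 0.0941). The study assigns ELOB, ELOC, RBX1 and VBP1 to the making of the VHL ubiquitin ligase. Of these, ELOC, elongin C, measured 4506, 6802 and 4423 with CANA, against 3697, 3581 and 3522 in control and rose by 0.31. ELOB (0.26), RBX1 (0.26) and VBP1 (0.23) also rose, with calls lost without CANA replicate C (adjusted p = 0.0622, 0.202 and 0.216). VBP1 lost its call by limma also without control replicate A (adjusted p = 0.0857) or control replicate B (adjusted p = 0.0734). In all of the genes that the study assigns to this ligase CANA replicate B was the highest library. The mitochondrial gene ND1 (0.34) and the proton pump genes ATP6V0E1 (0.30) and ATP6V1E1 (0.28) rose and kept their calls without any 1 further library. SDHB of complex II (0.19) lost its call by limma without CANA replicate C, control replicate A (adjusted p = 0.0934) or control replicate B (adjusted p = 0.0706). SDHC (0.15, adjusted p = 0.053) and ATP6V1H (0.20, adjusted p = 0.069) did not pass by limma.

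Single secreted proteins of clotting and of the TGF-beta family moved in both directions. The counts of both lists can be read against 10.4% higher and 9.52% lower over all genes. TFPI, the inhibitor that stops clotting at tissue factor, measured 1583, 1702 and 1662 with CANA, against 927, 946 and 929.5 in control, with a log2 difference of 0.80 (SE 0.057, adjusted p = 7.7e-08). THBS1, thrombospondin, which activates latent TGF-beta, measured 16796, 12037 and 14256 with CANA and 19291, 20426 and 18820 in control and fell by 0.33. The groups did not overlap in any of these. ANXA2, a cell surface receptor for plasminogen, rose by 0.21. Of 18 genes of clotting and plasminogen 3 rose and 1 fell (5 and 1 without control replicate C). Of 29 members of the TGF-beta superfamily 4 rose and 6 fell (2 rose without CANA replicate A, 3 fell without CANA replicate C). FST, follistatin, which traps activins (chromosome 5, 53480626 to 53487134), measured 7814, 11594 and 8038 with CANA, against 4551, 4674 and 4869 in control, and INHBA, the activin A subunit that it traps, 7713, 12320 and 7208 with CANA, against 6177, 6355 and 6002 in control. Their log2 differences were 0.75 (SE 0.047, adjusted p = 2.4e-08) and 0.27 (SE 0.048, adjusted p = 8.3e-04). BMP2 measured 329, 339 and 335 with CANA and 429, 406 and 447 in control (-0.36). BMPR2, its receptor, fell by 0.24 and lost the call without CANA replicate C (adjusted p = 0.0748), and TGFB3 measured 137, 142 and 176 with CANA and 180.1, 206 and 205 in control and did not pass (-0.34, adjusted p = 0.053 by limma).

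Targets of YAP and SRF had 4 of 22 higher and 1 lower (4 and 0 without CANA replicate C as well, 4 and 3 without control replicate C). RND3, which opposes RhoA, measured 4403, 4678 and 4565 with CANA and 3014, 3042 and 3342 in control (0.52), and CCN1, a matricellular protein, 5957, 5977 and 5703 with CANA and 4369, 4441 and 4501 in control (0.39). ANKRD1, a much used YAP target, measured 79.4, 110.1 and 73.4 with CANA and 45.6, 36.7 and 43.4 in control (0.86). CANA replicate B lay with A and C for RND3 and CCN1. Counts of the YAP and SRF, matrix, integrin and keratin lists can be read against 10.4% higher and 9.52% lower over all genes. Some matrix genes fell. Of 29 collagens, laminins and related genes 1 rose and 7 fell (0 and 4 without CANA replicate C as well). COL1A1, a chain of fibrillar collagen, measured 1023, 582 and 913 with CANA, against 1391, 1364 and 1242 in control, and TNC, tenascin C, 7104, 3511 and 6513 with CANA, against 8913, 8777 and 8182 in control. Their log2 differences were -0.46 (SE 0.067, adjusted p = 1.2e-04) and -0.34 (SE 0.052, adjusted p = 2.0e-04), with -0.27 for COL6A3 and -0.23 for COL12A1. In these long messages CANA replicate B was far below replicates A and C. Integrins showed the opposite split, with 4 of 16 higher and 1 lower over the 5 libraries (1 higher without CANA replicate A, 0 lower without CANA replicate C). ITGB1, the common beta chain, measured 51721, 41677 and 54783 with CANA and 46586, 46354 and 45729 in control, and ITGA3, its laminin-binding partner, 35108, 23676 and 32532 with CANA and 29766, 29320 and 27869 in control, so that replicates A and C were above and replicate B below every control. Their calls were lost without CANA replicate C for ITGB1 (adjusted p = 0.113) and without CANA replicate A for ITGA3 (adjusted p = 0.0656). Of 19 keratin and junction genes 3 rose and 1 fell (1 and 0 without CANA replicate C as well, 4 and 3 without control replicate C). CLDN12 rose by 0.33, and CLDN1 by 0.37 with its call lost without CANA replicate C (adjusted p = 0.104).

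Genes of cell-to-cell signalling fell where they were called. Of 35 Wnt pathway genes 0 rose and 7 fell (3 without CANA replicate C as well), with a median of -0.12, and of 17 ephrins and their receptors 0 rose and 3 fell (1 without CANA replicate C as well, 6 without control replicate C), with a median of -0.13. WNT5A, a ligand of the non-canonical branch, measured 1167, 952 and 1180.2 with CANA, against 1468, 1359.8 and 1452 in control. EPHB3, a receptor for ephrin-B ligands, measured 214, 196 and 205 with CANA, against 369, 319.5 and 283 in control. Each CANA library was below each control, and the log2 differences were -0.28 (SE 0.057, adjusted p = 0.0024) and -0.62 (SE 0.1, adjusted p = 5.4e-04). The coactivator BCL9 (-0.26), the ligand WNT7B (-0.23), the receptors FZD8 (-0.23) and EPHB2 (-0.32) were called over the 5 libraries and each lost the call without 1 CANA library (adjusted p = 0.12, 0.082, 0.0532 and 0.149).

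A minority of the proliferation genes fell, by small steps. Of 52 mitosis genes 20 fell and 2 rose (11 and 0 without CANA replicate C as well, 21 and 7 without control replicate C), of 26 genes of G1 cyclins, their kinases and E2F factors 8 fell and 1 rose (3 and 0 without CANA replicate A), and of 44 DNA replication genes 13 fell and 3 rose (1 and 1 without CANA replicate C as well, 18 and 6 without control replicate C). CDC20, which activates the anaphase-promoting complex (chromosome 1, 43358981 to 43363203), measured 3264, 3783 and 3118 with CANA, against 4269.7, 4416 and 4039 in control. ESPL1, the protease separase, measured 1325, 798 and 1240.3 with CANA, against 1648, 1785 and 1632 in control. CCNF, a cyclin that targets proteins for destruction, measured 862, 687 and 752 with CANA, against 1157, 1112 and 1044 in control. All CANA libraries were below all controls in these genes. By log2 the differences were -0.41 (SE 0.051, adjusted p = 2.6e-05), -0.40 (SE 0.059, adjusted p = 1.6e-04) and -0.45 (SE 0.069, adjusted p = 2.0e-04) in that order. GTSE1, a microtubule protein of G2 and mitosis, fell by 0.38, and CCND3, a D-type cyclin, by 0.32. E2F2, an activating E2F factor, measured 196, 187 and 189 with CANA, against 287, 284 and 258 in control (-0.52), and CDC25A, the phosphatase that frees CDK2, 983, 917 and 1010.0 with CANA and 1245, 1210.0 and 1264 in control (-0.31). MCM2 and MCM5 of the replicative helicase fell by 0.23 and 0.27 and lost their calls without CANA replicate C (adjusted p = 0.0701 and 0.165). RPA3, the smallest subunit of the single-strand binding complex, rose by 0.40, with replicate B far above the other CANA libraries (1016, 2059 and 1089 with CANA and 739.9, 832 and 831 in control). The medians of the lists were -0.07, -0.12 and -0.07 against -0.01 over all genes.

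Of the chromatin silencing genes few were called, with 1 of 24 higher and 6 lower (0 and 2 without CANA replicate C as well). TRIM28, the corepressor of zinc finger proteins, measured 9651, 9765 and 9882 with CANA, against 12198, 12255 and 12071 in control, with a log2 difference of -0.32 (SE 0.044, adjusted p = 7.1e-05). EZH2, the methyltransferase of polycomb complex 2, measured 1159, 1250.4 and 1146 with CANA and 1444, 1399.6 and 1377 in control (-0.29). UHRF1 (fell by 0.34) and DNMT1 (fell by 0.25), which copy DNA methylation, lost their calls without CANA replicate C (adjusted p = 0.0563 and 0.0895). The linker histone gene H1-2 rose by 0.28 and lost the call without CANA replicate C (adjusted p = 0.127).

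In a list of 27 genes of growth arrest and cell death 5 rose and 3 fell (2 and 1 without CANA replicate C as well), shares of the list that can be read against 10.4% and 9.52% of all genes, and the median was -0.01, as over all genes. CCNG1, cyclin G1, measured 2708, 3712 and 2937 with CANA, against 2066, 1990.4 and 2294 in control (0.42). PHLDA3, an inhibitor of AKT, measured 2790.1, 3632 and 2635 with CANA and 2072, 2113 and 2198 in control (0.35). TNFRSF10B, the TRAIL receptor DR5, measured 2462, 2011 and 2424 with CANA and 2815, 2954 and 2877 in control and fell by 0.24. CDKN1A, the CDK inhibitor p21, measured 791, 829 and 825 with CANA and 920, 843 and 805 in control and did not pass (-0.08, adjusted p = 0.43 by limma). In the BCL2 family 4 of 15 rose (2 without CANA replicate C as well) and 0 fell. BCL2A1, a survival member that NF-kB controls, measured 986, 1875 and 1044 with CANA and 784, 791 and 796 in control (0.36). The death-promoting members BIK (0.53), BMF (0.39) and PMAIP1 (0.33), the NOXA gene, were called over the 5 libraries and each lost the call without 1 CANA library (adjusted p = 0.0899, 0.0788 and 0.0909).

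Among transcription factor families few members moved. ELF3, an epithelial ETS factor, measured 799.7, 852 and 852 with CANA, against 620.2, 543 and 543 in control and rose by 0.54 (SE 0.074, adjusted p = 7.1e-05), and it was the 1 higher member of 20 ETS genes, of which 5 fell (0 without CANA replicate C as well). CYP1B1, an enzyme controlled by the aryl hydrocarbon receptor, measured 1036, 992 and 1116 with CANA and 1360.1, 1325 and 1424 in control (-0.35), and 2 of 8 genes of that pathway fell (1 without CANA replicate C as well). Of 16 AP-1 and EGR genes 0 rose and 2 fell (0 without CANA replicate C as well), of 11 KLF genes 1 rose (0 without CANA replicate A) and 0 fell, and of 11 EGF family genes 0 were called by limma (2 fell without control replicate C). Of 16 heat shock genes 3 rose and 2 fell (0 rose without CANA replicate C as well, 0 fell without CANA replicate A, 4 fell without control replicate C), and of 29 clustered histone genes 1 rose and 1 fell. The genes TFPI, DUSP5, TRIM28, TXNIP, TGFB3, E2F2, EGR2, ATF5, CDC20, GTSE1, CCNF, CDC25A and PIK3R3 are among those the study named from these same libraries, so that their values here are not independent evidence of a direction.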

How the data were processed

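RNA of PC3 cells was sequenced as single-end 50-base reads from strand-specific libraries. The authors trimmed the reads with Trimmomatic and Cutadapt, aligned them to hg38 with HISAT2, counted exon reads per gene with featureCounts and divided the counts by DESeq2 size factors; tool versions are not given in the sources used here. The deposited signal, called normalized reads, is that quotient. Whole reads were recovered from it (99.9989% of 91170 values within 0.01 of a whole number) for the count tests and library totals. The authors' own fold change and p-value columns were not used. Of 15195 genes, 101 without a symbol (0.0246% of the summed values) were left out, and 1 row that carried the symbol TGFB3 for another gene was renamed TGFB1I1 from its Entrez number.

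CANA was compared with control by limma 3.58.1 in R 4.3.3 on log2(normalized reads + 1), which understates the change of low genes, for the 13450 genes whose mean reached 10. Calls needed a Benjamini-Hochberg adjusted p under 0.05, two-sided, over all genes tested, with all 6 libraries and with the 5 libraries left without CANA replicate B. Adjusted p-values in the report are from limma over the 5 libraries unless another fit is named. An exact permutation test of 3 against 3 libraries cannot go below 0.1. Alternatives were a pseudocount of 5, no filter, a mean of at least 100, median centring, edgeR 4.0.16 and DESeq2 1.42.0 on recovered reads, a lowess curve on transcript length (span 0.3), library weights, a replicate block and leaving out each library. Lengths and positions are those of GENCODE canonical transcripts on GRCh38 (13086 genes tested had one). The limma fit was tested on simulated data with planted changes: over 5 libraries it recovered 12, 56, 80 and 98% of genes changed by 0.25, 0.5, 1 and 2 on the log2 scale, and over 6 libraries 2, 28, 52 and 94%.

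Named genes were, in each direction, the 10 smallest p over 6 libraries among genes whose CANA and control libraries did not overlap, the 12 largest called differences over 5 libraries (both with a mean of at least 100), up to 4 members of each list by p, SLC5A2 and SLC5A1, and genes the study names for PC3. Any other gene named was chosen after its values were seen. Some genes that this rule names are not reported here. The comparison and the gene lists were chosen with earlier results of these data known.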

Additional observations from a re-analysis of the deposited data

How the results depend on the processing

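With all 6 libraries limma called 0 genes, and so did edgeR, other pseudocounts, filters and median centring. DESeq2 on recovered reads called 263 higher and 84 lower, taking away a curve on transcript length gave 35 and 5, and library weights, which set CANA replicate B to 0.0643, gave 2275 and 2240. Leaving out 1 library gave 0 to 1403 higher and 0 to 1280 lower genes, above 0 only without CANA replicate B. With 5 libraries, leaving out 1 more gave 516 to 1930 higher and 258 to 1960 lower. The other settings stayed within 1.5 times of 1403 and 1280. Whether the replicate letters pair the samples is not known. The deviations of same-letter libraries correlated at 0.123, 0.045 and 0.062, and those of different letters at -0.165 to 0.065. Deviations within a group sum to 0, so these values cannot decide the question. With the replicate block limma called 0 and 0 over 6 libraries and 1714 and 1810 over 5. Of 179 genes given with a difference, 170 were called over 5 libraries and 119 kept the call without any 1 further library. The cause of these changes was not tested. Some genes given with a difference are not among the 179, such as HLA-B, ND6, CDKN1A, IL11 and SLC30A1. Of genes with a mean of 10 to 100 normalized reads, 1.65% were called higher and 1.32% lower over 5 libraries.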
